A study of Mus musculus with 66 samples.

Results

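The genes described here are the subunits of the mouse Mediator complex, chosen by gene symbol as Med followed by a number, with or without a final l, together with Ccnc, Cdk8 and Cdk19. Med13 and Med13l were left out. This gave 31 of the 30084 symbols in the count table, and 30 of the 31 passed the filter on low counts and were tested. Expression was measured by RNA sequencing in neurons cultured from wildtype mouse embryos at E16.5 (embryonic day), with male and female cultures kept apart. Lentivirus delivered an shRNA, a hairpin RNA that is processed to silence the matching mRNA, against Med13l, Chd8, Setd5, Kdm6b, Kmt2c, Ash1l, Dnmt3a, Mbd5 or Tbr1, or a nontargeting shRNA, and further cultures received no virus. Each of these 11 conditions had 3 libraries per sex, 66 libraries in 22 groups. Medium with virus was replaced at day 6 of culture, and lysis followed at day 10. The study chose virus doses that left about 50% of the target's mRNA, so every comparison was designed as partial depletion, by 1 labelled shRNA condition per target. The level of the target itself is given below for Med13l, Setd5 and Kdm6b only. The labels speak of wells infected in triplicate and do not say that replicates came from separate litters, so p-values measure the spread between these libraries.

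Mediator is a large protein complex that passes signals from transcription factors bound at enhancers to RNA polymerase II at promoters. Its core has a head and a middle module, which contact the polymerase, and a tail, which binds transcription factors, all held together by the scaffold Med14. A separate kinase module, made of cyclin C (Ccnc), the kinase Cdk8 or its paralogue Cdk19, Med12 or its paralogue Med12l, and Med13 or Med13l, binds the core reversibly and keeps the polymerase from docking. Med13 and Med13l are the subunits that tether the kinase module to the core. The Med13l shRNA therefore targeted a partner of the genes described here, and no shRNA targeted a subunit among them.

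Total counts per library ranged from 13634872 to 66074822. Med13l itself, the check of the knockdown, was at 37.1% of its nontargeting level in males (log2 fold change −1.43, SE 0.188, edgeR adjusted p = 2.35e-07) and at 30.4% in females (−1.72, SE 0.190, edgeR adjusted p = 4.38e-09). In 3 further libraries the data and the label disagreed. Setd5 mRNA in males, as CPM (counts scaled to the library size), was at 133, 135 and 149 under nontargeting shRNA and at 141, 42.9 and 42.7 in the libraries labelled Setd5 shRNA, so that replicate 1 was not depleted. Replicate 1 of the males labelled Kdm6b shRNA had 44.9 CPM of Setd5. Kdm6b mRNA in males was at 55.1, 64.9 and 59.5 CPM under nontargeting shRNA, at 39.9, 17.2 and 17.2 CPM in the libraries labelled Kdm6b shRNA, and at 23.1, 47.2 and 62.6 CPM in those labelled Setd5 shRNA. The 2 male replicate 1 libraries thus each had a lower level of the other's target than of their own, relative to nontargeting shRNA. In females Setd5 mRNA was at 97.3, 155 and 126 CPM under nontargeting shRNA and at 31.9, 61.5 and 32.9 CPM under Setd5 shRNA. Female Kdm6b mRNA was at 31.0, 52.3 and 54.4 CPM under nontargeting shRNA and at 10.7, 21.1 and 36.2 CPM under Kdm6b shRNA. Replicate 3 of the Kdm6b shRNA females thus lay within the nontargeting range. The library labelled Setd5 shRNA female replicate 1 held 574 counts of the Y-linked gene Kdm5d, against at most 2 in the other 32 female libraries. It also held 612 counts of the Y-linked Ddx3y, against at most 12, but 0 counts of the Y-linked Uty. All 3 stayed in their labelled groups. The Setd5 and Kdm6b calls below are given with and without them, except under the replicate block, where only the fit with all libraries was made. Neuronal markers (Rbfox3, Map2, Tubb3, Snap25, Syt1, Nefl) summed to between 3740 and 6210 CPM in all 66 libraries, while microglial markers summed to at most 3.87 CPM.

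Among the 18 comparisons of an shRNA with the nontargeting shRNA of the same sex, Mediator genes passed the test 16 times in 540 (2.96%, against 2.48% over all genes tested). The calls fell on 7 genes, namely Cdk19, Med12l, Med9, Med16, Med29, Med8 and Med23. The other 23 genes tested passed in none of the 18. Calls occurred after Med13l, Chd8, Setd5 and Kdm6b shRNA. The sequences shown first are the promoters of the 4 genes that passed after Chd8 shRNA in both sexes, a set shown because the same 4 subunits were called in males and in females. Med9 and Med12l fell, and Med16 and Med29 rose. Each sequence is the 250 bases before the RefSeq start of the gene (GRCm38.p6), read 5′ to 3′ on the gene's strand, with matches to the motifs searched in capitals.
Med9, chr11:59947964-59948213, plus strand: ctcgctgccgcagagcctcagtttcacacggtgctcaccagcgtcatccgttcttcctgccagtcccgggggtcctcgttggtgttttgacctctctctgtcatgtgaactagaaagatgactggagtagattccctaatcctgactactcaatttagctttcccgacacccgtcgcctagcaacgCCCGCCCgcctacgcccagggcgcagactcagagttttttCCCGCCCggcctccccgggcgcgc
Med12l, chr3:59006728-59006977, plus strand: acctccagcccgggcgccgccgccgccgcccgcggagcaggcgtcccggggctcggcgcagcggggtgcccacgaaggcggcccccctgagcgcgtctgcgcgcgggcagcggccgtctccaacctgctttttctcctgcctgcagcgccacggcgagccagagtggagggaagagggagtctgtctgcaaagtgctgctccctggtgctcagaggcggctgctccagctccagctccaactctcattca
Med16, chr10:79908939-79909188, minus strand: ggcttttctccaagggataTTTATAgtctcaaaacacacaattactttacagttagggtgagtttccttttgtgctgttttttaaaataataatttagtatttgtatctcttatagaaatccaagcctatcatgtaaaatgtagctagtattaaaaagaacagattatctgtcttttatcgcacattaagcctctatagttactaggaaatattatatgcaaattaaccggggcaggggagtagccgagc
Med29, chr7:28392691-28392940, minus strand: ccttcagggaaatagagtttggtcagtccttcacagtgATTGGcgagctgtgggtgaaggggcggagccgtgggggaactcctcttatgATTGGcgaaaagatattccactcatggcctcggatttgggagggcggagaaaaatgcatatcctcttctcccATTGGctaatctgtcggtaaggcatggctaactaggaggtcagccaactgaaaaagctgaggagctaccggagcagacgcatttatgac
The capitals in Med9 mark 2 matches to GGGCGGG (the SP motif) on the reverse strand, those in Med16 mark a TATAAA on the reverse strand, and those in Med29 mark 3 CCAAT boxes (the NF-Y motif) on the reverse strand. Med12l held none of the 7 motifs searched. Its stretch lies before the RefSeq start but inside the gene as placed by GENCODE, the annotation used for exon lengths, where Med12l starts at 59005825.

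The RefSeq promoter table used here had entries for 26 of the 31 genes (30 promoters). The genes without an entry in it were Cdk19, Med8, Med23, Med24 and Med30. The 30 promoters had a median of 13.5 CpG dinucleotides in 250 bases (range 3 to 28), against 6 over all 32851 promoters in the table. In the 4 sequences shown, Med12l had 26 CpG, Med9 had 20, Med29 had 9 and Med16 had 3. Both strands were searched. The motif CCGGAAG (ETS) stood in 20% of the Mediator promoters and in 6.91% of all promoters. CCAAT stood in 40% and 33.8%, GGGCGGG in 30% and 23.4%, TATAAA in 10% and 12.4%, and TGACGTCA (CRE) in 3.33% and 1.55%. No Mediator promoter held the NRF1 motif (0.782% of all promoters) or AAGATGGCG (YY1, 0.606%). A match describes these letters only and is not a binding site.

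In the nontargeting libraries the subunit mRNAs ranged from Med9 at the top to Med18 at the bottom. Levels are compared as CPM per kilobase of merged exon. Med9, a middle subunit, was highest at 17.6 ± 1.20 (SD, n = 6), followed by the tail subunit Med30 at 16.8 ± 5.13, the middle subunit Med19 at 16.4 ± 1.27 and the head subunit Med11 at 16.1 ± 3.04. These 4 overlapped one another in their ranges over the libraries. At the other end, the head subunit Med18 was at 1.43 ± 0.261, below Med12l at 2.78 ± 0.306, Med7 at 2.89 ± 0.637 and Med12 at 3.08 ± 0.323. Med12l, Med7 and Med12 did not differ beyond their spread, and the highest Med18 library (1.87) lay under the lowest of any of these 3 (2.33). Within the kinase module Ccnc was at 9.96 ± 3.03, Cdk19 at 7.90 ± 1.23, Cdk8 at 4.05 ± 0.167, Med12 at 3.08 ± 0.323 and Med12l at 2.78 ± 0.306. Cdk19 mRNA thus exceeded Cdk8 mRNA per kilobase in all 6 libraries (lowest Cdk19 value 6.66, highest Cdk8 value 4.32). The scaffold Med14 was at 10.4 ± 2.22.

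Med10, a middle subunit, was the gene that could not be tested, with 0 to 3 counts in every library. Its exons (chromosome 13, 69802395 to 69816104, GRCm38) share 4168 of 4491 merged bases with the opposite-strand gene Gm26819. The counting rule for such reads is not given in the sources used here, so a low Med10 count is not a measure of its mRNA.

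**Figure D1:**
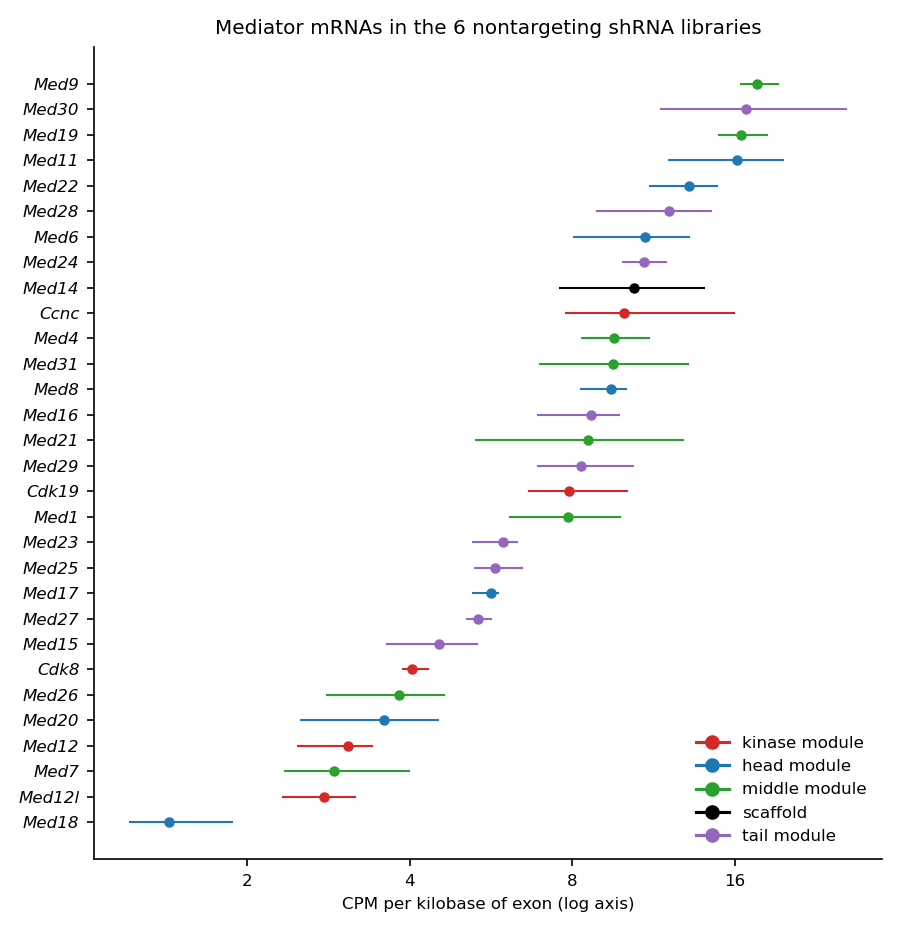
Level of each of the 30 tested Mediator genes in the 6 nontargeting shRNA libraries, as CPM per kilobase of merged exon on a log axis. Points are means and lines run from the lowest to the highest library, coloured by module. Med9 is highest at 17.6 and Med18 lowest at 1.43, and Cdk19 lies above Cdk8.

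After Med13l shRNA the kinase gene Cdk19 fell to less than its nontargeting range in both sexes, and the other kinase module genes did not pass the test. Cdk19 (chromosome 10, 40339564 to 40483818, plus strand, GRCm38) encodes the paralogue of Cdk8 that occupies the same place in the kinase module. In nontargeting females it stood at 38.9, 48.2 and 45.9 CPM, and after Med13l shRNA at 12.1, 25.1 and 19.8 CPM. In males it stood at 40.2, 44.8 and 59.0 CPM under the nontargeting shRNA and at 19.9, 23.8 and 20.5 CPM after Med13l shRNA. The groups did not overlap in either sex, and the no virus libraries (39.1 to 46.8 CPM in females, 43.7 to 52.4 CPM in males) lay with the nontargeting ones. The change was −1.22 (log2, SE 0.205, edgeR adjusted p = 3.16e-05) in females and −1.17 (SE 0.204, edgeR adjusted p = 7.19e-05) in males. Averaged over the sexes Cdk19 was at 43.7% of its control level (−1.19, SE 0.145, 6 libraries against 6, edgeR adjusted p = 8.67e-09). With any single library left out, the averaged change lay between −1.31 and −1.07 and passed. A fit of the 6 female libraries alone gave −1.22 with an edgeR adjusted p of 0.188, and that fit called 0 of 14466 genes.

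Cdk8, the paralogue, did not move with it. In nontargeting females Cdk8 was at 40.7, 40.0 and 38.2 CPM, and after Med13l shRNA at 33.5, 46.6 and 41.5 CPM. In males the values were 42.5, 38.8 and 38.5 CPM against 39.1, 41.9 and 35.5 CPM. The groups overlapped in both sexes, and the averaged difference was −0.00 (SE 0.089, 95% interval −0.18 to 0.18, edgeR adjusted p = 0.984). As a share of the summed per-kilobase level of Cdk19 and Cdk8, Cdk19 made up 65.2% ± 3.04 (SD, n = 3) in nontargeting females and 43.3% ± 4.92 after Med13l shRNA. In males the share was 66.5% ± 5.35 and 48.1% ± 1.74. Shares after Med13l shRNA ranged up to 49.3% over the 6 libraries, and nontargeting shares began at 61.4%.

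Cyclin C, the regulatory partner of both kinases, did not pass the test in either sex or averaged. Ccnc was at 81.8, 41.6 and 48.4 CPM in nontargeting females and at 104, 42.2 and 57.0 CPM after Med13l shRNA, so replicate 1 was high in both groups. In males it was at 48.9, 45.2 and 39.9 CPM and at 50.1, 51.4 and 56.1 CPM. The averaged difference was 0.24 (SE 0.238, edgeR adjusted p = 0.504), with overlap in females and none in males. Med12, which activates the kinase and is encoded on the X chromosome, was at 19.1, 23.4 and 23.5 CPM in nontargeting females and 16.1, 15.9 and 23.5 CPM after Med13l shRNA. Its male values were 24.6, 26.2 and 25.4 CPM against 27.1, 23.7 and 21.9 CPM, and the averaged difference was −0.16 (SE 0.130, edgeR adjusted p = 0.395). The Med12 groups overlapped in both sexes. Med12l, the Med12 paralogue, was at 29.7, 34.8 and 32.5 CPM in nontargeting females and at 20.0, 33.1 and 26.2 CPM after Med13l shRNA. Male Med12l was at 36.8, 38.5 and 40.3 CPM and at 45.2, 40.9 and 36.9 CPM. These groups overlapped too, with an averaged difference of −0.10 (SE 0.155, edgeR adjusted p = 0.684). The Med12l share of the summed per-kilobase level of Med12l and Med12 was 47.1% ± 1.50 in nontargeting females against 46.3% ± 8.25, and 47.8% ± 1.04 in males against 50.5% ± 0.418.

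Without the replicate number as a block, the calls beyond the kinase module after Med13l shRNA were few and small. With it 12 of 30 passed in females (40%, against 27.9% of all genes), as described further below. The counts that follow are without the block and include Cdk19. In males Cdk19 was the 1 gene of 30 that passed (3.33%, against 8.06% of all genes tested). In females 4 of 30 passed (13.3%, against 10.2% of all genes), with Med29 and Med8 higher and Cdk19 and Med23 lower. Averaged over the sexes 6 of 30 passed (20%, against 24.1% of all genes), 3 higher and 3 lower, Med27 and Med1 being the additions. The median change over the 30 genes was 0.09 in males, 0.14 in females and 0.08 averaged, beside −0.01, 0.00 and −0.01 over all genes. The libraries of the 2 conditions did not overlap in either sex, with 1 direction in males and females, for 2 genes (6.67%, against 13.6% of all genes), Cdk19 (lower) and Med9 (higher). In this model, without the replicate number as a block, the share of subunits that passed lay on both sides of that of all genes. It was above in females and below in males and averaged over the sexes. With no virus as control 2 of 30 passed in females, against 11.4% of all genes. The female excess without the block rests on few calls and is not shown to be particular to the subunits.

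**Figure D2:**
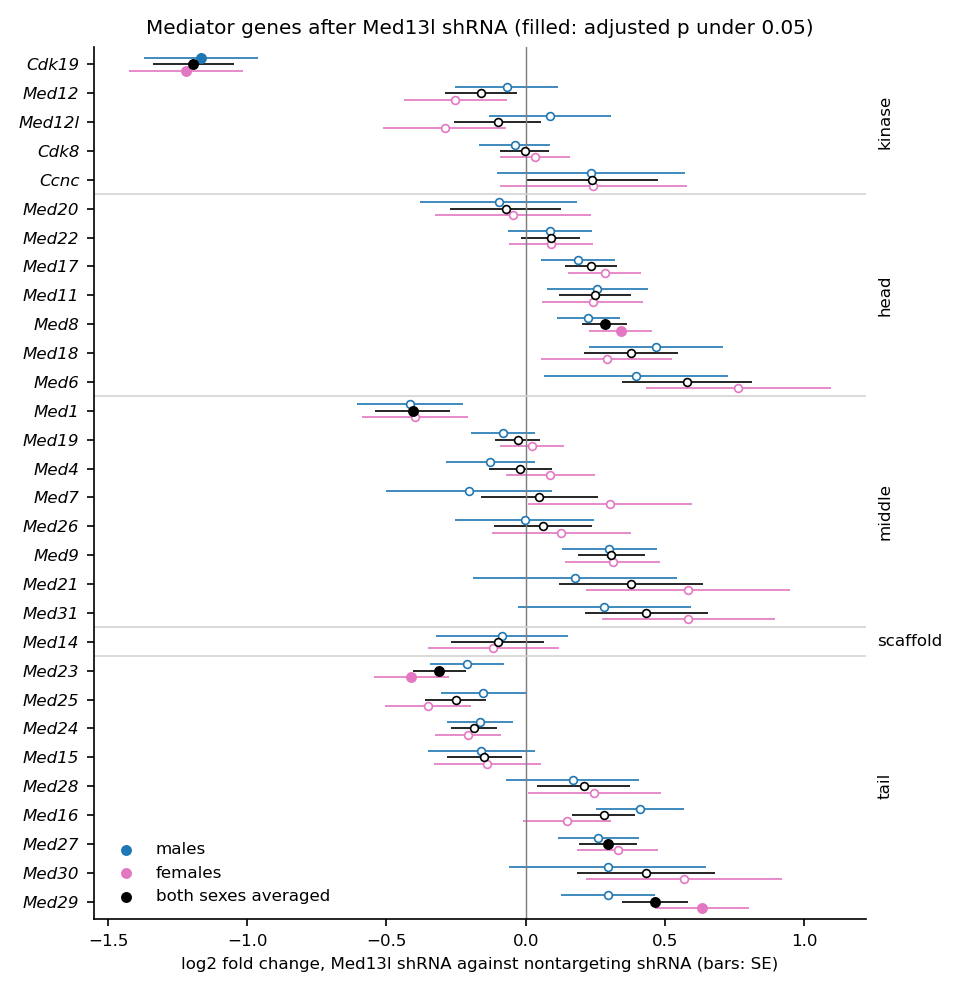
Log2 fold change of the 30 Mediator genes after Med13l shRNA against nontargeting shRNA in males, females and averaged over the sexes, grouped by module, with bars for the SE and filled points for an adjusted p under 0.05. Cdk19 lies near −1.2 in all 3 contrasts, and the other genes run from −0.41 (Med1, males) to 0.76 (Med6, females).

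In the head module, which contacts the polymerase and the general factors, 1 of 7 genes passed averaged over the sexes and 6 of 7 had a positive difference (median 0.25). Med8, a head subunit, was at 29.6, 30.3 and 27.8 CPM in nontargeting females and at 35.4, 39.0 and 36.6 CPM after Med13l shRNA. Male values were 27.5, 24.9 and 30.2 CPM against 31.8, 30.0 and 34.8 CPM. The groups were apart in females and overlapped in males by a small margin. The averaged change was 0.28 (SE 0.081, edgeR adjusted p = 0.00706). The female change of 0.34 (SE 0.114, edgeR adjusted p = 0.0438) no longer passed when any 1 of the 6 libraries was left out (edgeR adjusted p up to 0.132). Med6 had the highest averaged difference of any member, 0.58 (SE 0.235), yet did not pass (edgeR adjusted p = 0.0640), and its female libraries ran from 11.7 to 19.1 CPM under nontargeting shRNA and from 13.2 to 43.4 CPM after Med13l shRNA.

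Of the middle module, which links the head to the tail, 1 of 8 tested genes passed averaged over the sexes, namely Med1, the subunit that binds nuclear receptors. Med1 was at 53.7, 86.0 and 56.7 CPM in nontargeting females and at 34.2, 64.3 and 50.7 CPM after Med13l shRNA, where the groups overlapped. In males it was at 69.9, 68.4 and 78.0 CPM and at 51.4, 54.0 and 56.9 CPM, without overlap. The averaged change was −0.41 (SE 0.135, edgeR adjusted p = 0.0224). The call was lost without nontargeting female replicate 2 (−0.27, edgeR adjusted p = 0.172), Med13l shRNA female replicate 1, nontargeting male replicate 3 or Med13l shRNA male replicate 1. Med9, a middle subunit, was at 32.4, 31.5 and 35.9 CPM in nontargeting females and 43.1, 41.1 and 39.8 CPM after Med13l shRNA, and at 34.6, 31.7 and 37.0 CPM against 42.3, 41.0 and 44.0 CPM in males. All 6 Med13l shRNA libraries thus lay above all 6 nontargeting ones, with an averaged difference of 0.31 (SE 0.121, edgeR adjusted p = 0.0557). The same held for Med9 after Tbr1 shRNA, at 38.5 to 41.0 CPM in females and 42.0 to 44.1 CPM in males, so it is not particular to Med13l shRNA. The scaffold Med14, which is X-linked, differed by −0.10 (SE 0.167, edgeR adjusted p = 0.710).

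The tail, where many activators dock, held 3 of the 6 averaged calls among its 9 genes. Med29 rose in females from 10.3, 11.1 and 10.1 CPM to 21.3, 13.5 and 14.1 CPM (0.63, SE 0.169, edgeR adjusted p = 0.00920), without overlap. Male Med29 was at 13.3, 10.1 and 8.87 CPM and at 14.1, 13.4 and 12.1 CPM (0.29, SE 0.169, edgeR adjusted p = 0.324), with overlap. Without Med13l shRNA female replicate 1, the highest library, the female value was 0.40 and did not pass (edgeR adjusted p = 0.256). The averaged change was 0.46 (SE 0.119, edgeR adjusted p = 0.00292) and passed without any single library.
Med23, a tail subunit that receives signals from the ERK pathway factor ELK1, fell in females from 38.7, 42.3 and 35.0 CPM to 19.4, 35.5 and 32.2 CPM (−0.41, SE 0.134, edgeR adjusted p = 0.0389). Those groups overlapped, and without Med13l shRNA female replicate 1 the value was −0.19 (edgeR adjusted p = 0.586). The female call was also lost without nontargeting female replicate 1 or 2. In males Med23 was at 41.3, 40.1 and 41.6 CPM and at 37.6, 36.4 and 32.3 CPM, without overlap (−0.21, SE 0.134, edgeR adjusted p = 0.385). Averaged, the change was −0.31 (SE 0.095, edgeR adjusted p = 0.0124), and −0.19 without that library (edgeR adjusted p = 0.125). It was also lost without nontargeting female replicate 2 (edgeR adjusted p = 0.0564). Med27 was at 17.0, 17.7 and 18.3 CPM in nontargeting females and at 19.3, 24.5 and 22.8 CPM after Med13l shRNA, without overlap. Its male values were 17.9, 16.9 and 18.7 CPM against 22.8, 18.5 and 22.9 CPM, with overlap. The averaged change was 0.30 (SE 0.103, edgeR adjusted p = 0.0294), and it was lost without nontargeting female replicate 1, nontargeting male replicate 2, Med13l shRNA female replicate 2 or Med13l shRNA male replicate 1 or 3 (edgeR adjusted p up to 0.0755). The other 6 tail genes ranged from −0.25 (Med25) to 0.43 (Med30) averaged and did not pass.

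Replicate numbers paired the female libraries of Med13l and nontargeting shRNA, and with the number as a block more subunits passed. In females 12 of 30 passed with the block (40%), 8 higher and 4 lower, beside 27.9% of all genes. The count averaged over the sexes was 17 (56.7%, 12 higher and 5 lower), beside 41.5% of all genes, though the male numbers did not pair after Med13l shRNA. Cdk19 changed by −1.23 in females with the block (edgeR adjusted p = 4.47e-08). Head and middle genes that passed in females under the block were Med6 (0.66, edgeR adjusted p = 5.19e-04), Med8, Med17, Med21 (0.53), Med31 (0.51) and Med1 (−0.40, edgeR adjusted p = 0.00799). The tail genes were Med29, Med30 (0.50), Med27, Med23 and Med25 (−0.35).

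A comparison that uses no nontargeting library set Med13l shRNA against the mean of the other 8 shRNAs, over both sexes. Cdk19 was lower by −1.20 (SE 0.119, edgeR adjusted p = 1.32e-11, 6 libraries against 48), a difference between −1.32 and −1.08 without any single library. In all, 10 of 30 subunits passed (33.3%, against 34.8% of all genes), 6 higher and 4 lower. Med9 was higher by 0.55 (SE 0.086, edgeR adjusted p = 1.23e-06), Med29 by 0.40 (SE 0.086), Med12l by 0.35 (SE 0.113), Med16 by 0.34 (SE 0.081), Med27 by 0.27 (SE 0.075) and Med8 by 0.16 (SE 0.060). Med23 was lower, at −0.34 (SE 0.073), as were Med25 at −0.23 (SE 0.083) and Med24 at −0.17 (SE 0.064). The mean of the other 8 includes Chd8 and Setd5 shRNA, after which Med9 and Med12l had their lowest values. Med16 had its lowest value after Kdm6b shRNA (−0.73, males) and its highest after Chd8 shRNA (0.77, males), both part of that mean. Against nontargeting shRNA, without the replicate block, Med9, Med12l, Med16, Med24 and Med25 did not pass after Med13l shRNA in either sex or averaged. Of these calls, that of Med24 was lost without any 1 of 17 libraries, that of Med25 without 4 of the 6 Med13l shRNA libraries, that of Med8 without Med13l shRNA female replicate 2 or male replicate 3, and that of Med12l without Med13l shRNA female replicate 2.

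The Med13l fold changes were lower for genes of greater merged exon length, as were those after most other shRNAs. That length covers all annotated exons of a gene and is not the length of the mRNA present in these neurons. Over the 30 genes, Spearman's rho between the log2 fold change and the merged exon length was −0.62 in males and −0.78 in females, given as descriptions, since the genes share libraries and base composition. Over all 15762 genes with a length the values were −0.14 and −0.26. Averaged over the sexes rho was −0.78 after Med13l shRNA. In the averaged comparisons of the other 8 shRNAs, which share these control libraries, it was −0.60 for Tbr1, −0.51 for Kmt2c, −0.45 for Chd8, −0.32 for Dnmt3a, −0.29 for Ash1l and for Kdm6b, −0.23 for Setd5 and 0.06 for Mbd5. For nontargeting shRNA against no virus rho was 0.38. Of the 15 Mediator genes shorter than 3922 bases, 11 had a positive difference in males and 15 in females. Of the 15 longer ones, 5 had a positive difference in each sex. After a correction for length and GC content in each library, chosen after seeing the data, rho was −0.45 in males and −0.62 in females. With that correction 2 of 30 passed in males (Cdk19 and Med16), beside 11.0% of all genes. In females 3 of 30 passed (Cdk19, Med23 and Med29), beside 12.2% of all genes. The part of length in the small differences was not tested further.

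**Figure D3:**
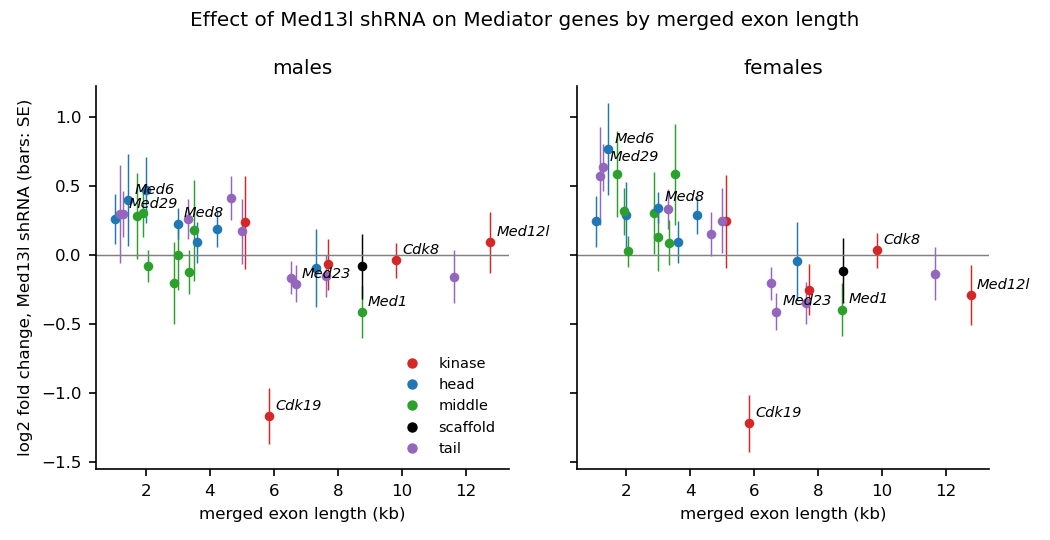
Log2 fold change of the 30 Mediator genes after Med13l shRNA against merged exon length in kilobases, in males (left) and females (right), with bars for the SE and colours for the modules. Short genes lie mostly above 0 and long genes mostly below, with rho of −0.62 and −0.78, and Cdk19 lies below all other genes in both panels.

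After Chd8 shRNA, which targets a chromatin remodelling ATPase, Med9 and Med12l fell and Med16 and Med29 rose, in males and in females. The middle subunit Med9 fell to 36.5% of its control in males (−1.45, SE 0.175, edgeR adjusted p = 2.18e-08) and 36.1% in females (−1.47, SE 0.175, edgeR adjusted p = 1.96e-08), which is the largest change of any Mediator gene in the 18 comparisons. Its male libraries stood at 13.3, 12.2 and 12.2 CPM and its female libraries at 7.66, 15.3 and 13.0 CPM, against 31.5 to 37.0 CPM in the 6 nontargeting libraries given above. Med12l fell as well, to 19.6, 19.0 and 15.9 CPM in males (−1.08, SE 0.222, edgeR adjusted p = 5.26e-04) and 13.6, 19.7 and 17.8 CPM in females (−0.93, SE 0.222, edgeR adjusted p = 0.00358). No Chd8 shRNA library overlapped the nontargeting libraries of its sex for either gene. The Med12l share of Med12l and Med12 was 31.1% ± 5.16 in males and 31.5% ± 7.04 in females after Chd8 shRNA. Without Chd8 shRNA female replicate 1 the female Med12l call was lost (−0.78, edgeR adjusted p = 0.0681).

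The tail subunits Med16 and Med29 rose after Chd8 shRNA. Med16 was at 72.0, 61.9 and 75.3 CPM in males, against 38.2, 43.5 and 41.1 CPM under nontargeting shRNA (0.77, SE 0.158, edgeR adjusted p = 5.53e-04). Female Med16 was at 62.9, 52.7 and 65.4 CPM, against 42.3, 32.2 and 45.6 CPM (0.59, SE 0.158, edgeR adjusted p = 0.00961). Med29 was at 17.5, 15.3 and 13.7 CPM in males (0.53, SE 0.169, edgeR adjusted p = 0.0346) and at 17.5, 15.5 and 14.8 CPM in females (0.60, SE 0.169, edgeR adjusted p = 0.0142). The groups were apart in both sexes for both genes. The female Med16 call was lost without nontargeting female replicate 2 or Chd8 shRNA female replicate 1 or 3 (edgeR adjusted p up to 0.0923). The female Med29 call was lost without nontargeting replicate 1 or 3 or Chd8 shRNA replicate 1 (edgeR adjusted p up to 0.109), and the male call without nontargeting replicate 2 or 3 or Chd8 shRNA replicate 1 or 2 (edgeR adjusted p up to 0.230). In all, 4 of 30 subunits passed in each sex (13.3%, against 9.82% of all genes in males and 9.33% in females). Averaged over the sexes 8 of 30 passed (26.7%, against 22.3% of all genes), the further 4 being Med8 (0.32, SE 0.080), Med22 (0.30, SE 0.107), Med24 (0.24, SE 0.084) and Med15 (−0.42, SE 0.135). Of these, Med8 passed without any single library, Med15 was lost without nontargeting or Chd8 shRNA female replicates 2 and 1 respectively, and Med22 and Med24 were lost without any 1 of 6 and 7 of the 12 libraries.

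Med12l was the subunit that fell furthest after Setd5 shRNA. Setd5 encodes a SET domain protein of chromatin. In females Med12l was at 11.97, 20.32 and 9.84 CPM, all below the nontargeting range of 29.7 to 34.8 CPM (−1.20, SE 0.226, edgeR adjusted p = 0.00113). Leaving out the female library that held Y-linked counts, the change was −1.10 (edgeR adjusted p = 0.0341). In the male libraries so labelled Med12l was at 32.9, 14.9 and 15.6 CPM, the first value being that of the library that went against its label. With all 3 the male change was −0.86 (SE 0.222, edgeR adjusted p = 0.164), and without the male replicate 1 libraries of Setd5 and Kdm6b shRNA it was −1.33 (edgeR adjusted p = 9.89e-05). With the replicate number as a block, which pairs the Setd5 libraries, all 3 male libraries gave −0.89 (edgeR adjusted p = 0.0167, where 1.06% of all genes passed). In females 2 of 30 subunits passed (6.67%, against 3.12% of all genes), and 1 without the library that held Y-linked counts (3.33%, against 0.517%). In males 0 passed (against 0.0557%), and 1, Med12l, without the male replicate 1 libraries (3.33%, against 1.25%).

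The exons of Med12l (chromosome 3, 59005825 to 59318682, plus strand, GRCm38) share 1948 of 12763 merged bases with Igsf10 on the other strand, 248 with Gm43570 and 9 with P2ry12. Reads from the shared bases cannot be told apart without the strand setting of the counting, which the sources used here do not give. Igsf10 was at 54 to 830 counts over the 66 libraries and differed by 0.06 after Chd8 shRNA averaged over the sexes and by −0.81 after Setd5 shRNA in females.

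Med16, the tail subunit that rose after Chd8 shRNA, had lower values after Kdm6b and Setd5 shRNA. Kdm6b encodes a histone H3 lysine demethylase. In the male libraries labelled Kdm6b shRNA Med16 was at 25.2, 24.5 and 24.3 CPM (−0.73, SE 0.159, edgeR adjusted p = 0.0382), all below the nontargeting libraries, and Med16 was the 1 of 30 subunits that passed (3.33%, against 0.0867% of all genes). Without the male replicate 1 libraries of both shRNAs the change was −0.75 (edgeR adjusted p = 0.0159). In females it was at 21.9, 22.2 and 28.6 CPM, also below the nontargeting range, with nearly the same difference of −0.72 (SE 0.159), which did not pass (edgeR adjusted p = 0.593). In that female comparison 0 of the 16145 genes (0%) passed by edgeR, and replicate 3 had Kdm6b mRNA within the nontargeting range (36.2 CPM). Leaving out any 1 of the 6 male libraries ended the male call (edgeR adjusted p up to 0.269), and a correction for length and GC content gave −0.47 (edgeR adjusted p = 0.219). The average over the sexes was −0.73 (SE 0.113, edgeR adjusted p = 3.52e-04, 1 of 30 against 0.966% of all genes) and passed without any single library. Without the male replicate 1 libraries of both shRNAs it was −0.74 (edgeR adjusted p = 1.96e-05). The head subunit Med22 then passed too (−0.42, edgeR adjusted p = 0.0262, beside −0.39 and 0.0633 with all libraries), making 2 of 30 against 1.26% of all genes.
After Setd5 shRNA in females Med16 was at 20.9, 32.3 and 28.8 CPM, overlapping the nontargeting libraries (−0.55, SE 0.160, edgeR adjusted p = 0.0409). That call was lost without the library that held Y-linked counts (−0.39, edgeR adjusted p = 0.427), with replicate 3 of these Setd5 shRNA libraries left out, or without nontargeting female replicate 1 or 3. Male Med16 in the libraries labelled Setd5 shRNA was at 22.2, 38.8 and 41.1 CPM, the low value again being that of replicate 1. Without the male replicate 1 libraries of both shRNAs the male difference was −0.03 (edgeR adjusted p = 0.998).

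**Figure D4:**
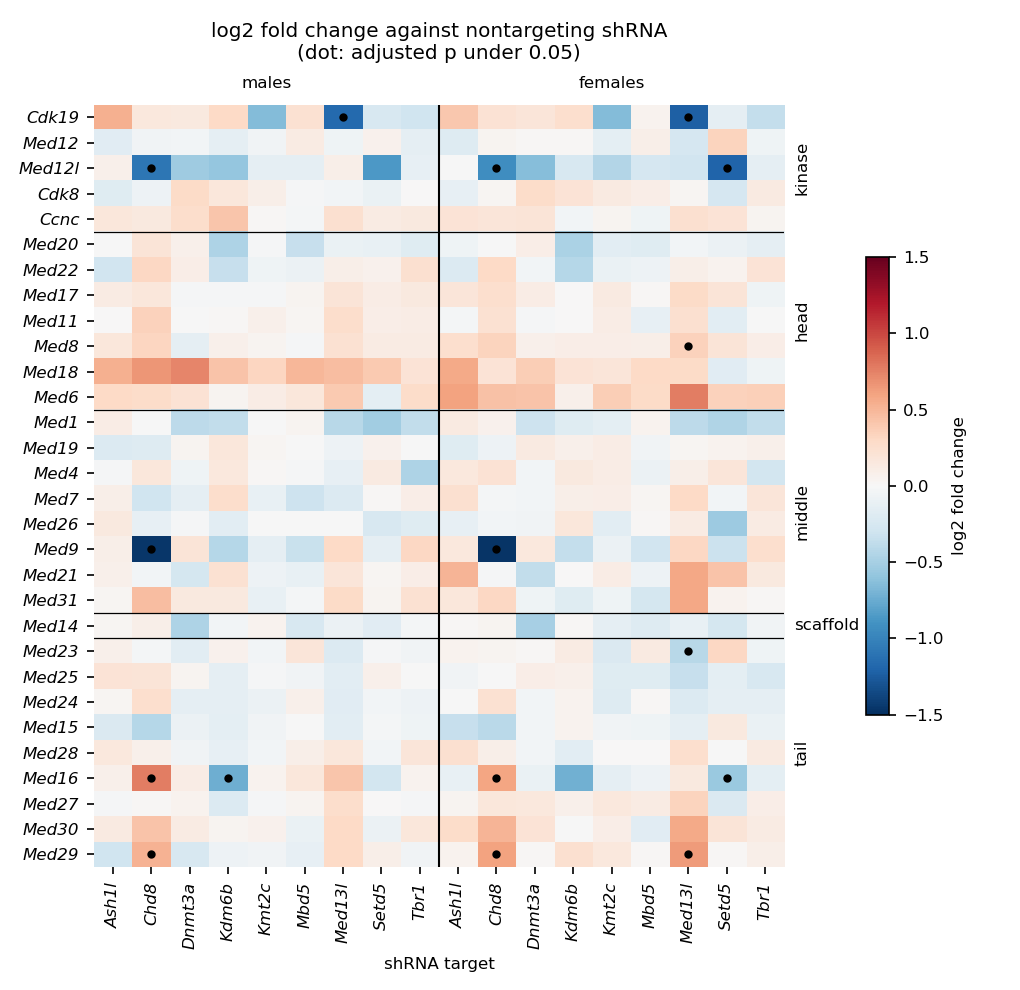
Log2 fold change of the 30 Mediator genes (rows, by module) in the 18 comparisons of an shRNA with nontargeting shRNA of the same sex (columns), from −1.5 in blue to 1.5 in red, with a dot for an adjusted p under 0.05. The 16 dots lie on Cdk19, Med12l, Med9, Med16, Med29, Med8 and Med23, and the columns of each sex share 3 control libraries.

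Cdk19 was lower after Kmt2c shRNA as well, by a smaller amount than after Med13l shRNA. Kmt2c encodes a histone H3 lysine 4 methyltransferase. Its libraries had 20.7, 32.6 and 31.7 CPM of Cdk19 in females and 27.9, 27.8 and 35.7 CPM in males, none of which reached the nontargeting range of its sex. Averaged over the sexes Cdk19 was at 63.6% of control (−0.65, SE 0.143, edgeR adjusted p = 0.00987), the 1 subunit of 30 that passed (3.33%, against 0.694% of all genes). The call was lost without Kmt2c shRNA female replicate 1 (−0.56, edgeR adjusted p = 0.101) or nontargeting male replicate 3. In each sex alone Cdk19 did not pass (edgeR adjusted p = 0.596 in males and 0.357 in females), but it did with the replicate block (edgeR adjusted p = 0.0356 and 0.0222, where 0.434% and 1.09% of all genes passed). The Cdk19 share of Cdk19 and Cdk8 was 51.9% ± 3.43 in females and 54.6% ± 4.78 in males after Kmt2c shRNA. After Ash1l shRNA, against another histone methyltransferase, the averaged Cdk19 level was higher (0.47, SE 0.142, edgeR adjusted p = 0.0355), with 55.2, 58.7 and 62.4 CPM in females and 62.1, 56.2 and 89.6 CPM in males. The share of Cdk19 was then 73.1% ± 2.11 and 76.2% ± 4.81. That Ash1l call was lost on leaving out any 1 of 8 of the 12 libraries (edgeR adjusted p up to 0.185).

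Further calls in the averaged comparisons were single genes. Med18, a head subunit with 44 to 292 counts per library, was higher after Ash1l shRNA (0.55, SE 0.168, edgeR adjusted p = 0.0373), so that 2 of 30 subunits passed (6.67%, against 6.16% of all genes). Med18 was 2.46 ± 0.0445 CPM (SD, n = 3) in nontargeting males and 3.50 ± 0.608 CPM without virus, and its difference was positive in 16 of the 18 comparisons, which share the nontargeting libraries. Against no virus the Ash1l value was 0.40 (edgeR adjusted p = 0.160), and the call was lost without any 1 of 9 of the 12 libraries. Med12l was lower after Dnmt3a shRNA, against a DNA methyltransferase (−0.59, SE 0.156, edgeR adjusted p = 0.0386, 1 of 30 against 1.40% of all genes). That call was lost on leaving out any 1 of 10 of the 12 libraries (edgeR adjusted p up to 0.153). Setd5 shRNA averaged over the sexes gave 3 calls (10.0%, against 5.30% of all genes), Med12l (−1.03, SE 0.158), Med1 (−0.49, SE 0.135) and Med16 (−0.41, SE 0.112). Without the male replicate 1 libraries of Setd5 and Kdm6b shRNA these were −1.27, −0.55 and −0.29, and Med16 no longer passed (edgeR adjusted p = 0.0788). Cdk8 then did (−0.31, edgeR adjusted p = 0.00564, beside −0.17 and 0.305 with all libraries), so the count stayed at 3, against 7.43% of all genes. Cdk8 was at 50.4, 31.9 and 29.4 CPM in males and at 31.0, 39.7 and 29.3 CPM in females labelled Setd5 shRNA, the high value being that of male replicate 1. Leaving out Setd5 shRNA female replicate 1, Med1 and Med16 did not pass (edgeR adjusted p = 0.0836 and 0.115), which left 1 of 30 against 2.77% of all genes. For Mbd5 and Tbr1 shRNA no subunit passed by edgeR in either sex or averaged. At the adjusted threshold 0.663% and 1.33% of all genes passed in the averaged comparisons. At an unadjusted p under 0.05 the averaged Mbd5 comparison had 2 of 30 subunits (6.67%, against 6.89% of all genes) and the Tbr1 comparison 5 of 30 (16.7%, against 9.90%). With the replicate block 1 and 2 subunits passed, beside 3.32% and 6.57% of all genes.

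**Figure D5:**
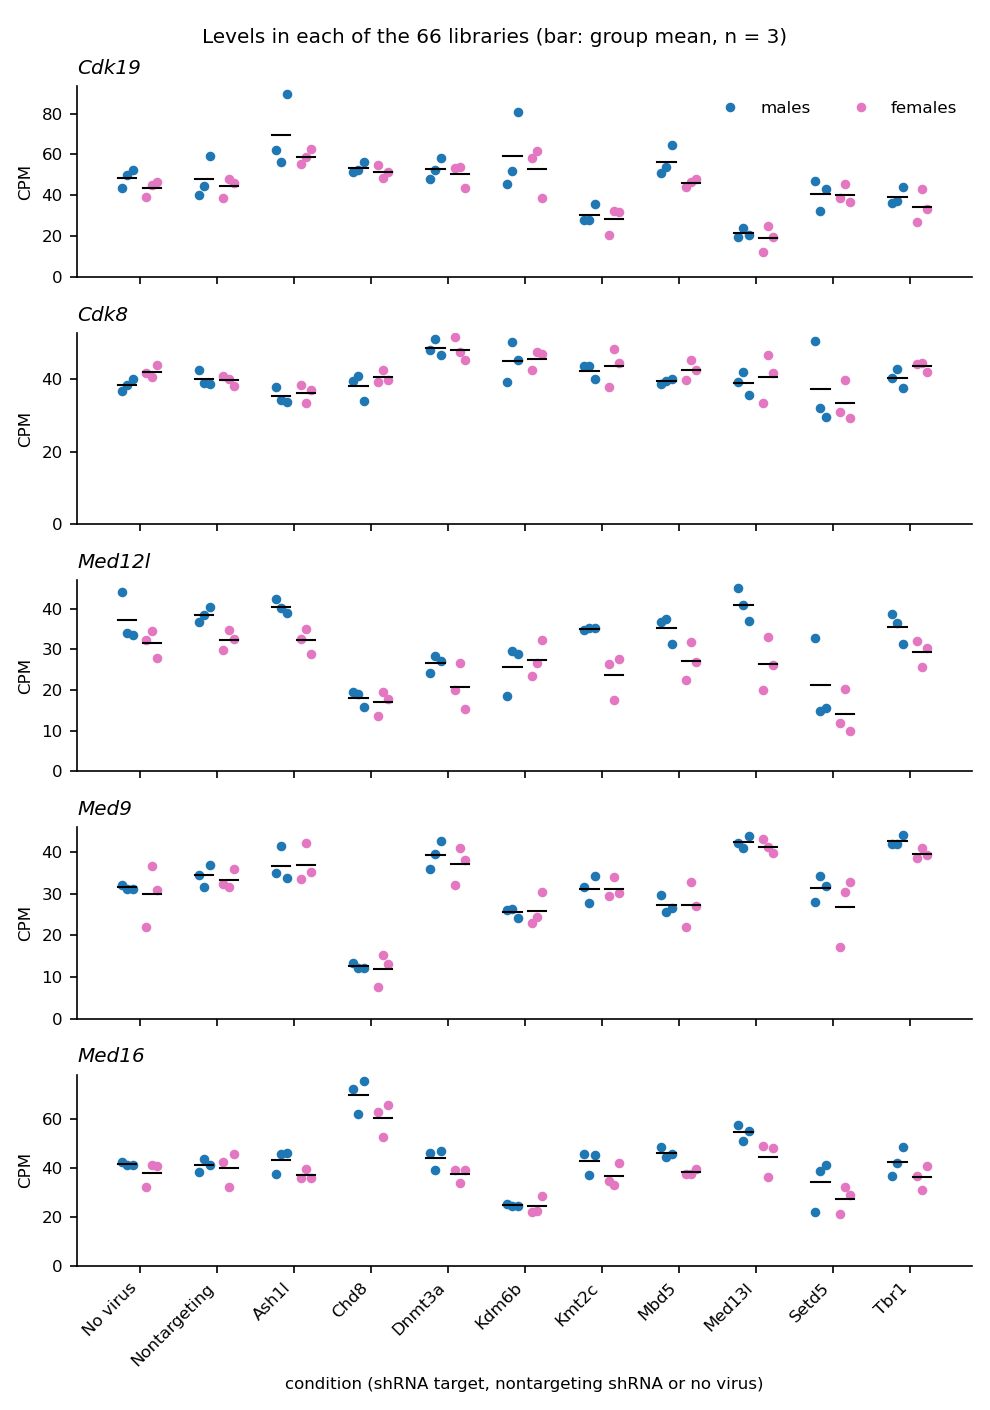
CPM of Cdk19, Cdk8, Med12l, Med9 and Med16 in each of the 66 libraries (points, males in blue and females in pink, bars for group means of 3) by condition. Cdk19 is low after Med13l and Kmt2c shRNA while Cdk8 there lies near its nontargeting level, Med12l is low after Chd8 and Setd5 shRNA except in male replicate 1, which went against its label, and Med9 is low after Chd8 shRNA.

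Sex, virus and the sex difference of the Med13l effect gave no call among the subunits by edgeR. For nontargeting shRNA against no virus 0 of 30 and 0 of 16145 genes (0%) passed. There 0 of 30 had an unadjusted p under 0.05, beside 0.700% of all genes. The smallest p among the subunits was that of Med6 (−0.32, SE 0.234, edgeR adjusted p = 0.9999). For males against females under nontargeting shRNA 0 of 30 passed, beside 0.0434% of all genes, and 0 had an unadjusted p under 0.05, beside 1.50%. The smallest p there was that of Med18 (−0.40, SE 0.239, edgeR adjusted p = 0.9999). The X-linked genes Med12 (0.21, SE 0.183) and Med14 (0.05, SE 0.236) had differences within their errors. Without virus 0 of 30 passed between the sexes, and 1 had an unadjusted p under 0.05 (3.33%, against 4.59% of all genes). In the test of the male minus the female Med13l effect 0 of 30 subunits and 0% of all genes passed. Med29 had the smallest p (−0.34, SE 0.239, edgeR adjusted p = 0.9999), and 0 subunits had an unadjusted p under 0.05, beside 0.681% of all genes. The calls of Med29, Med8 and Med23 in females alone are therefore not shown to differ between the sexes.

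The subunits that varied most between replicates of a group did so together. They were Med21, Med30, Med6, Ccnc and Med31, with a within-group SD of 0.40 to 0.47 (log2 CPM), beside a median of 0.30 over all genes. Their deviations from the group means correlated with r between 0.80 and 0.95 over 66 libraries (10 pairs, a description). The median over all 435 pairs of subunits was −0.03. The 5 were picked for their spread, which lay at percentiles 63.1 to 70.4 of all genes. Correlations among equally variable genes outside Mediator are not given, so this is not shown to be particular to Mediator. In females replicate 1 lay above its group mean by 0.40 to 0.60 for these 5 and replicate 2 below it by 0.44 to 0.62, averaged over the 11 conditions. Med30, for example, was at 30.5, 13.9 and 23.2 CPM in nontargeting females and at 54.0, 16.8 and 29.6 CPM after Med13l shRNA. Male replicates of the 5 deviated by at most 0.15 on average. In females these deviations were as large as most of the differences between conditions given above.

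The wider transcription machinery was described by lists of genes that work with Mediator. Of 13 RNA polymerase II genes, 6 were higher and 1 lower after Med13l shRNA averaged over the sexes, where 24.1% of all genes passed, with a median of 0.35 beside −0.01 over all genes. In each sex alone 1 of the 13 passed, beside 8.06% of all genes in males and 10.2% in females. In each sex 12 of 13 had a positive difference, beside 49.3% of all genes in males and 50.2% in females. Of 31 general transcription factor genes 11 were higher and 2 lower (median 0.10), and of 30 elongation genes 1 was higher and 2 lower (median −0.16). Cohesin, which holds enhancers and promoters together with Mediator, had 1 higher and 1 lower of 10. In the SCF ubiquitin ligase, which turns over Med13 and Med13l, 1 of 4 tested genes was higher and 0 lower. Genes of these lists called in both sexes were Gtf2e2, a TFIIE subunit (0.84, SE 0.265, and 1.07, SE 0.265, in males and females), Larp7, which holds the elongation kinase P-TEFb in its inactive complex (0.58 and 0.73), Supt5, an elongation factor bound to the polymerase (−0.53 and −0.61), and Ctr9, a PAF complex subunit (−0.25 and −0.25).

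Sums of neuronal and of dividing-cell markers were lower after Med13l shRNA than in any nontargeting library, and the other marker sums overlapped. The sums were not tested, nor was the part of cell types in the Mediator values. Single markers are counted by the averaged test, in which 24.1% of all genes passed. The neuronal sum was 4990 to 5670 CPM in the 6 nontargeting libraries and 3740 to 4490 CPM after Med13l shRNA, with 1 of 6 markers lower by the averaged test. GABAergic markers summed to 1010 to 1560 CPM and 693 to 1300 CPM (2 of 4 lower), astrocyte markers to 316 to 479 CPM and 253 to 392 CPM (2 of 7 lower). Dividing-cell markers summed to 3.07 to 8.08 CPM and 1.40 to 2.11 CPM, with 4 of 4 lower. Oligodendrocyte lineage markers (1 of 6 lower) and fibroblast markers (1 of 4 lower) summed to at most 40.2 and 49.0 CPM in these 12 libraries. Excitatory neuron markers summed to 540 to 731 CPM and 535 to 936 CPM (1 of 5 higher), and of microglial, endothelial and mural markers none was called. In bulk libraries fewer cells of a type and less RNA per cell cannot be told apart.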

How the data were processed

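Polyadenylated RNA from 66 neuron cultures was made into stranded libraries, per the labels' protocols. The deposited table holds raw read counts per gene, and the submitters' processing notes name STAR, featureCounts and mm10. The versions, the annotation and the strand setting of the counting are not given in the sources used here. Rows without a symbol (18483 of 48716, 0.690% to 1.41% of counts) were left out, and 149 repeated symbols were summed. Another 6 columns match none of the samples and were left aside. The control columns carry a luciferase name and were matched to the nontargeting label.

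Counts were tested in R 4.3.3 with edgeR 4.0.16 (filterByExpr, 16145 genes, TMM factors 0.874 to 1.06, robust quasi-likelihood F test, a mean for each of 22 groups over 66 libraries), with Benjamini-Hochberg adjustment over all genes within each comparison and a threshold of 0.05. A gene is said to pass, rise, fall or be called at that threshold. Fold changes are log2 with SE derived from the test statistic, and CPM are on TMM-scaled library sizes. Contrasts averaged over the sexes weight the male and female effects equally. Single-library deviations used log2 CPM with a prior count of 2. The script was tested on simulated counts. Members of a group differed by more than sampling noise (chi-square per gene 7.92 to 386), so no library was counted as a duplicate. Of the counts from 1 to 20, 29.5% were odd, against 49.1% of those of at least 1000. Errors of single counts cover counting only, since PCR reads are not independent molecules.

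Replicate numbers are shared across groups. They were taken to pair libraries where each correlation of deviations, over genes, between same-numbered shRNA and nontargeting libraries was over 0.1, which held except for Ash1l and Med13l in males (Med13l 0.02 to 0.14) and Kdm6b in both sexes. For Med13l in females the correlations were 0.23 to 0.65.

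Gene positions, merged exon lengths and GC content came from GENCODE M21 (GRCm38), and promoters from RefSeq (GRCm38.p6). The genes named are every member called after Med13l shRNA, the kinase module whatever its result, every member called after another shRNA, and otherwise the member with the smallest p. Med6, Med9, Med14, Med18, Med24, Med25 and Med30 were added after their values were seen. The members, lists and rules were chosen with earlier results of these data known. Alternatives were RLE size factors, 2 other filters, halved counts, the replicate block, no virus as control, sexes or groups fitted apart, DESeq2 1.42.0, each library left out, and a length and GC correction added after seeing the data.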

Additional observations from a re-analysis of the deposited data

How the results depend on the processing

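The fall of Cdk19 after Med13l shRNA kept its direction and its side of the threshold in males and averaged over the sexes under every alternative run, and in females under all but the fit of the groups compared. The count of subunits called depended on the fit. Where the value was within 1.5 times the original it is not repeated. Percentages in brackets are the share of all genes that passed in the same fit, given for Med13l shRNA with all libraries. For Med13l shRNA in males (1 gene, 8.06%) the replicate block gave 5 (23.8%) and no virus as control 2 (8.71%). The length and GC correction gave 2 (11.0%), and that correction with the replicate block 4 (27.2%). Each sex fitted separately gave 4 (19.6%), and only the groups compared 5 (29.1%). In females (4 genes, 10.2%) no filter gave 2 (5.23%), the replicate block 12 (27.9%) and no virus 2 (11.4%). The correction with the block gave 9 (27.9%) and each sex separately 2 (4.71%). Only the groups compared gave 0, where no gene of any kind passed and Med13l itself was at −1.72 (edgeR adjusted p = 0.120). Leaving out 1 library gave 1 to 6 in females and 1 in males. Averaged over the sexes (6 genes, 24.1%) the block gave 17 (41.5%), the correction with the block 12 (42.9%) and DESeq2 10 (26.2%). Leaving out 1 library gave 4 to 9 there. Against the other 8 shRNAs (10 genes, 34.8%) the block gave 18 (49.7%) and leaving out 1 library 8 to 16. For the other 8 shRNAs in males (5 calls) no filter gave 3, the block 14, the correction with the block 25, each sex separately 11, DESeq2 8, only the groups compared 10, leaving out 1 library 3 to 6, and leaving out both male replicate 1 libraries that went against their labels 6. In females (6 calls) the block gave 16, the correction with the block 18, only the groups compared 0 and leaving out 1 library 3 to 8. Shares of all genes are not given here for these pooled counts or for the fits without 1 library. As the share of all genes also moved with the fit, those counts are not shown to be particular to Mediator.

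The averaged differences of Cdk8 and Med12l after Med13l shRNA, both near 0 and not called, changed sign. Cdk8 was 0.0061 with a 1 CPM filter, 0.0056 with halved counts, 0.071 with the correction, 0.067 with the correction and the block, 0.0014 in the groups compared, and between −0.051 and 0.065 with 1 library left out. Med12l was 0.074 with the correction and 0.071 with the correction and the block. Of the other single-gene values under these alternatives, 553 kept their side of the threshold, 49 lost a call and 26 gained one. Interaction, virus and sex counts were 0 under every alternative run. The replicate block was not run for sex, since replicate numbers are nested in it. With 3 libraries a group, 1 library ended many calls, whatever their size: the averaged Med8 change of 0.28 after Med13l shRNA passed in each of 12 fits without 1 library, while the Kmt2c value of Cdk19 (−0.65) did not in 2 of 12. Low counts limit Med18 most, and Med10 could not be measured.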
